A study of Mus musculus with 4 samples.

Results

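The genes described here encode enzymes of heme synthesis, with the carrier Slc25a38 that brings glycine into mitochondria for the first reaction. They were taken by name in pathway order: Alas1, Alas2, Alad, Uros, Urod, Cpox, Ppox, Fech and Slc25a38. Each of the 9 had 1 probe set that carried its symbol alone, among 21789 such probe sets and 19938 genes in all. The step between Alad and Uros was not analysed here. RNA came from early erythroid progenitors of C57BL/6 mouse fetal liver at E14.5, depleted of lineage-positive, Sca-1, CD16/32, CD41 and CD34 cells and sorted for c-Kit with low CD71. Lysates were immunoprecipitated either with control rabbit IgG (2 arrays) or with an antibody specific for an RNA-binding protein, RBP (2 arrays), and the recovered RNA was hybridised to Affymetrix whole-transcript arrays. No genetic change or drug is recorded for either group. The labels leave the protein unnamed. From knowledge of the published study it is taken to be ZFP36L2, a zinc finger protein that binds AU-rich elements of mRNAs, and this was not checked here.

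Heme is built in a chain of reactions that starts in the mitochondrion, passes through the cytosol and ends in the mitochondrion again. The first reaction joins glycine to succinyl-CoA and is made by either of 2 isoenzymes, the ubiquitous Alas1 or the erythroid Alas2. Red cell precursors switch the pathway up strongly as they begin to make haemoglobin, and Alas2 is the isoenzyme they use. The last enzyme, Fech, inserts iron into the porphyrin ring.

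The unit throughout is the deposited log2 level of a probe set. Levels of different probe sets depend on their probes as well as on RNA, so genes are compared here by the difference between groups, RBP minus IgG. An enriched mRNA is higher with RBP than with IgG. Array medians were 5.85 and 5.93 for IgG and 5.57 and 5.62 for RBP, and the RBP arrays had the wider spread. All 8 progenitor markers examined, among them Kit, Epor, Gata1 and Klf1, lay above 5.36. That value exceeds the levels of 95 percent of chemosensory receptor genes, thought to be silent in blood progenitors, and serves here as a background level. Of the 8, 5 were called higher. Their mean level ran from 9.63 to 9.80 on the IgG arrays and from 10.29 to 10.41 on the RBP arrays. Of 10 terminal erythroblast markers listed, 6 had no probe set with their symbol alone, and of the 4 measured, 1 was called higher. These 4 averaged 8.55 and 8.48 with IgG and 9.38 and 9.17 with RBP. Of 9 hepatocyte markers 0 were called (limma; 1 was lower at an unadjusted p under 0.05). These averaged 6.25 and 5.79 with IgG and 6.32 and 5.83 with RBP, so the level was higher on array 1 of each group. Of 10 macrophage markers 1 was higher and 2 were lower, of 5 megakaryocyte markers 1 was higher, and of 8 granulocyte and mast cell markers 1 was lower. Their mean levels on the IgG and RBP arrays ran from 5.48 to 5.73 and 5.48 to 5.81 for macrophages, from 5.96 to 6.02 and 6.11 to 6.35 for megakaryocytes, and from 6.93 to 7.71 and 6.55 to 7.18 for granulocytes and mast cells. The part of other cell types in the results was not tested.

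Comparing the immunoprecipitates asks which heme synthesis mRNAs the RBP antibody recovered beyond control IgG. Alas1, Alad, Cpox and Slc25a38 were higher on the RBP arrays, by 1.55-fold to 2.06-fold. Alas2, Uros, Urod, Ppox and Fech did not pass the test. With limma's moderated test and Benjamini-Hochberg adjustment over 19938 genes, 4 of 9 genes (44.4%) were called higher and 0 lower at an adjusted p under 0.05 (5 and 0 at an unadjusted p under 0.05). Over all genes 23.8% were called higher and 6.54% lower. Of the genes that averaged more than the background level, as 8 of the 9 do, 36.5% were called higher, so the share for heme synthesis was near that background. The median difference was 0.50 for the 9 genes, -0.02 for all genes and 0.40 for all genes above the background level. Both RBP arrays lay above both IgG arrays for 5 of the 9 genes (37.4% of all genes) and below them for 1 (36.2% of all genes). No replicate origin is recorded, so p-values reflect only how far these arrays lie apart, which may be technical. An exact permutation of 2 arrays against 2 cannot give a two-sided p below 0.333. The groups are immunoprecipitates from bulk lysates, so a difference between them measures neither the number of cells of a type nor the RNA per cell.

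**Figure D1:**
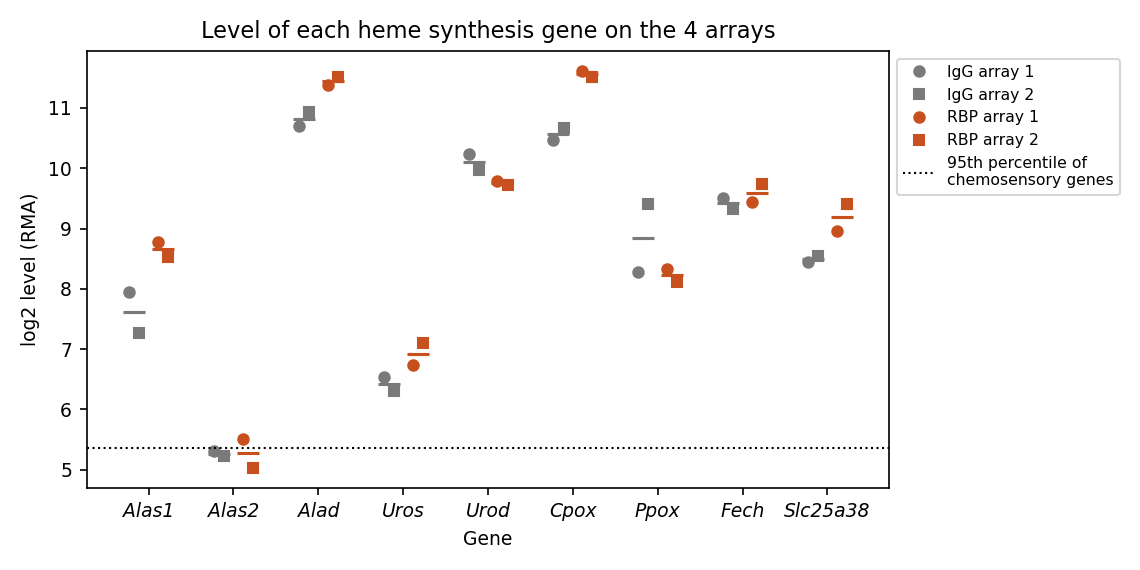
Log2 level (vertical axis) of the 9 genes on the 2 IgG arrays (grey) and the 2 RBP arrays (orange), with array 1 as circles, array 2 as squares and short lines at the group means. The dotted line is the background level of 5.36. Alas2 sits around that line on all 4 arrays, and IgG array 2 stands alone for Ppox at 9.41.

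Of the isoenzymes of the first step, Alas1 was higher on the RBP arrays and Alas2 lay at background on all 4. Alas1, the form found in all tissues and repressed by heme, read 7.95 and 7.27 with IgG and 8.78 and 8.53 with RBP. The RBP arrays were both higher, although the IgG pair lay far apart. Its mean level was 8.65 ± 0.17 (SD, n = 2) for RBP and 7.61 ± 0.48 for IgG. The difference was 1.05 ± 0.25 (SE; limma, adjusted p = 0.0293), or 2.06-fold. Alas2, the erythroid form whose mRNA carries an iron-responsive element, read 5.32 and 5.22 with IgG and 5.51 and 5.03 with RBP. The groups overlapped, and its mean of 5.27 was below the background level. Its difference was 0.00 ± 0.20 (SE; limma, adjusted p = 0.993) with a 95% interval from -0.50 to 0.50. A probe set at that level cannot show whether an mRNA of low abundance was recovered. In the RefSeq gene table Alas2 also overlaps Apex2 and Mir3620. Whether the isoenzymes differed in recovery was therefore not tested. Without RBP array 1 the difference of Alas1 was 0.92 and without RBP array 2 it was 1.17. Its call was lost in both fits, which measure the spread on the IgG pair alone, so this need not mean a smaller difference.

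Slc25a38, the glycine carrier, read 8.44 and 8.55 with IgG and 8.96 and 9.41 with RBP. The groups did not overlap. Its difference was 0.69 ± 0.19 (SE; limma, adjusted p = 0.0442), which passed narrowly. The call was lost when any of the 4 arrays was left out, with a difference from 0.47 without RBP array 2 to 0.92 without RBP array 1 (limma, adjusted p from 0.0587 to 0.293).

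RefSeq promoter windows of 300 bases (250 before a start site and 50 after it, build GRCm38.p6) were available for 8 of the 9 genes, in 11 windows. The arrays measure recovered RNA and not promoter activity, and the stretches below are shown because the isoenzymes of the first step carry different short motifs there. Each was searched on both strands, and capitals mark the match. The core of the NRF1 motif, CGCATGCG, was present in both windows of Alas1, which overlap at this stretch, and in 1.87% of all 32851 windows. The GATA motif (AGATAA or AGATAG or TGATAA or TGATAG), named for factors such as GATA1, was present in the window of Alas2, in that of Cpox and in 1 of 2 windows of Uros, against 29.8% of all windows. Cpox held a pair of overlapping GATA matches before its start site and a further match after it. The windows of Alas1, Alad and Slc25a38, which were also called higher, held no GATA match.
Alas1, chr9:106247906-106247935, minus strand: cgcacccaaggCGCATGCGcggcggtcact
Alas2, chrX:150547319-150547348, plus strand: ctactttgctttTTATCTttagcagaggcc
Cpox, chr16:58670107-58670136, plus strand: actaaagcgcCTATCTTATCAgtccaagca

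The Alas1 match begins 194 bases before one annotated start (-194) and at base 31 after the other, the Alas2 match begins at -86 and the Cpox pair at -91. The Alas1 windows held 27 and 44 CG dinucleotides and that of Alas2 held 6, beside a median of 7 over all windows. The KLF1-type CACCC box CCACACCC was found in 0 windows of the 9 genes and in 3.56% of all windows.

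In the cytosolic steps, Alad was enriched, and Uros and Urod did not pass. Alad, which condenses 2 molecules of aminolevulinic acid into porphobilinogen, read 10.71 and 10.93 with IgG and 11.38 and 11.52 with RBP. The RBP arrays were both higher, and its difference was 0.63 ± 0.16 (SE; limma, adjusted p = 0.0327), or 1.55-fold. It did not pass without IgG array 1 (0.52, limma adjusted p = 0.0514), without RBP array 1 (0.70, adjusted p = 0.158) or without RBP array 2 (0.56, adjusted p = 0.227). Uros, which closes the ring to uroporphyrinogen III, read 6.54 and 6.31 with IgG and 6.74 and 7.11 with RBP. Its arrays did not overlap, but the difference of 0.50 ± 0.19 did not pass (limma, adjusted p = 0.0938; 95% interval 0.04 to 0.97). The gene overlaps its neighbour Bccip in the RefSeq gene table.

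Urod, which removes carboxyl groups from the side chains of the ring, was the only member with both RBP arrays below both IgG arrays. It read 10.24 and 9.97 with IgG and 9.79 and 9.73 with RBP. Its difference was -0.35 ± 0.16 (SE; limma, adjusted p = 0.154), with a 95% interval from -0.75 to 0.05. Without IgG array 2 it was called lower (-0.49; limma, adjusted p = 0.0481), and without IgG array 1 it was -0.21 (adjusted p = 0.277). The E-box CACGTG, bound by factors such as USF and MYC, was present in windows of Alad (2 of 2), Uros (1 of 2) and Urod, the 3 cytosolic enzymes examined, and in 7.15% of all windows. Matches in Alad (beginning at -28 and at -105, from separate start sites) and Urod (at -49) are shown as examples of this shared motif. Alad was called higher, and the differences of Uros and Urod did not pass. A relation between the motif and recovery was not tested.
Alad, chr4:62519920-62519949, minus strand: ccgccccgccccCACGTGggcttgcgcttt
Alad, chr4:62520151-62520180, minus strand: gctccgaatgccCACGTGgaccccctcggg
Urod, chr4:116994445-116994474, minus strand: cactggatcggtCACGTGgttctcaatatg

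The steps that return to the mitochondrion were led by Cpox. Cpox, an oxidase of the intermembrane space that makes protoporphyrinogen, read 10.47 and 10.67 with IgG and 11.62 and 11.52 with RBP. The pairs were tight and well apart, at 10.57 ± 0.14 (SD, n = 2) against 11.57 ± 0.07. Its difference of 0.996 ± 0.15 (SE; limma, adjusted p = 0.00859) had the smallest adjusted p of the 9 genes. Without RBP array 1 it was 0.95 (limma, adjusted p = 0.0740) and without RBP array 2 it was 1.05 (adjusted p = 0.0535).

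Ppox, which oxidises protoporphyrinogen at the inner membrane, read 8.28 and 9.41 with IgG and 8.33 and 8.12 with RBP. IgG array 2 stood more than a log2 unit above the other 3 arrays, which lay close together. The difference of -0.62 ± 0.37 did not pass (limma, adjusted p = 0.238). It was -0.05 without IgG array 2 (adjusted p = 0.804), and without IgG array 1 it was called lower at -1.18 (adjusted p = 0.0113), so the value rests on the IgG pair. Fech, the ferrochelatase, read 9.51 and 9.33 with IgG and 9.45 and 9.75 with RBP. The groups overlapped, and the difference was 0.18 ± 0.17 (limma, adjusted p = 0.454; 95% interval -0.25 to 0.61).

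From Urod through Cpox to Ppox the sign of the difference alternated, although Urod and Ppox did not pass, while Alas1, Alad, Uros and Slc25a38 were all positive. On each array, the level of Cpox minus that of Urod was 0.23 and 0.70 with IgG and 1.83 and 1.79 with RBP, a shift of 1.34. The level of Cpox minus that of Ppox was 2.19 and 1.26 with IgG and 3.29 and 3.39 with RBP, a shift of 1.61. It combines a difference of 0.996 for Cpox with one of -0.62 for Ppox, and that of Ppox was -0.05 without IgG array 2. Both shifts were picked after the values were seen and are given without a test.

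**Figure D2:**
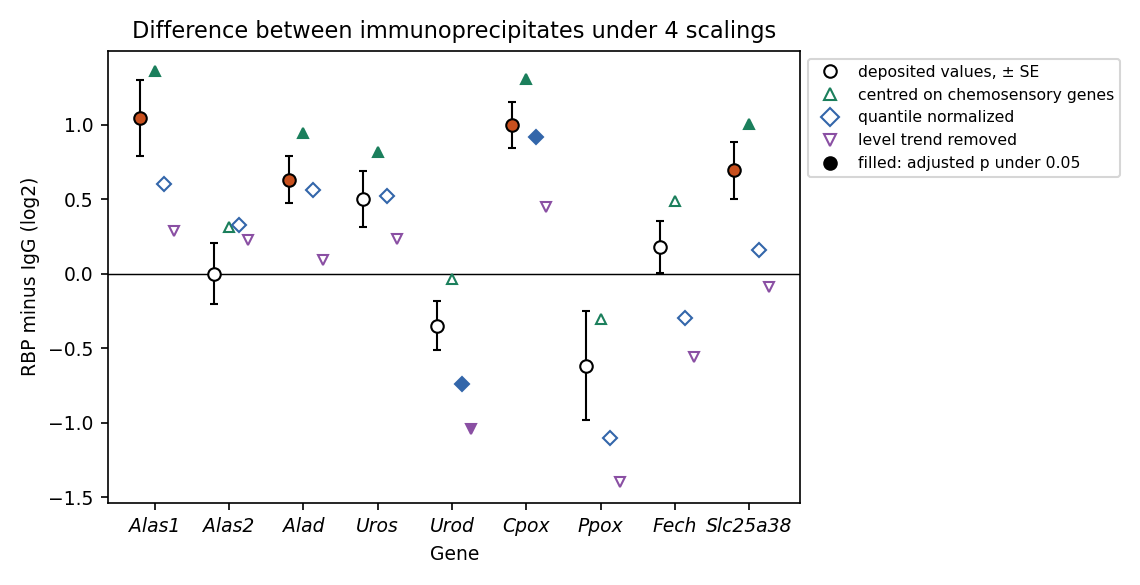
RBP minus IgG on the log2 scale (vertical axis) for the 9 genes with the deposited values (circles, bars ± SE) and under 3 other scalings, with filled symbols for an adjusted p under 0.05. Cpox is filled in 3 of the 4 scalings, and Urod is filled, as lower, with quantile normalization (-0.74) and with the level trend removed (-1.04) but lies at -0.03 after centring on the chemosensory genes.

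Which heme synthesis genes were called changed with the scaling, and over all genes the difference went with level. Genes averaging 5 to 6 had a median difference of -0.23. That median was 0.78 between levels 8 and 9, 0.74 between 9 and 10, and 0.34 between 11 and 12. At levels of 8 to 9, where Alas1, Ppox and Slc25a38 lie, 56.4% of genes were called higher, and at 9 to 10, where Urod and Fech lie, 57.8% were. At 11 to 12, where Alad and Cpox lie, the share was 39.1%. Alas1, Alas2, Alad, Uros and Cpox lay above the median of genes of like level, whereas Urod, Ppox, Fech and, narrowly, Slc25a38 lay below it.

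With the level trend subtracted, 0 of the 9 genes were higher (limma; 1 higher and 3 lower at an unadjusted p under 0.05) and Urod was lower (-1.04; limma, adjusted p = 0.0225), where 5.02% of all genes were higher and 5.34% lower. Ppox then differed by -1.40 (limma, adjusted p = 0.0667), Cpox by 0.45 (adjusted p = 0.128), Alas1 by 0.29 (adjusted p = 0.515), Alad by 0.094 (adjusted p = 0.753), and Slc25a38 turned to -0.09 (adjusted p = 0.816). With quantile normalization Cpox was higher (0.92; limma, adjusted p = 0.0274) and Urod lower (-0.74, adjusted p = 0.0408), where 11.1% of all genes were higher and 2.77% lower, and Fech turned to -0.30 as it turned to -0.56 with the trend removed. After centring on the chemosensory receptor genes, which raised the median of all genes from -0.02 to 0.29, 5 of the 9 genes were higher, Uros among them (0.82; limma, adjusted p = 0.0157), and the difference of Urod was -0.03 (adjusted p = 0.896). In that setting 35.5% of all genes were higher and 1.59% lower. The sign of Alas1, Alad, Uros and Cpox was positive, and that of Urod and Ppox negative, in all 12 alternatives run. Several of these could not change a sign, since each of the 9 genes has 1 probe set. The filter on level, both probe set options, the replicate block and the trend and robust options left these differences as they were. Only the 3 other scalings and the fits that left out an array could move them.

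**Figure D3:**
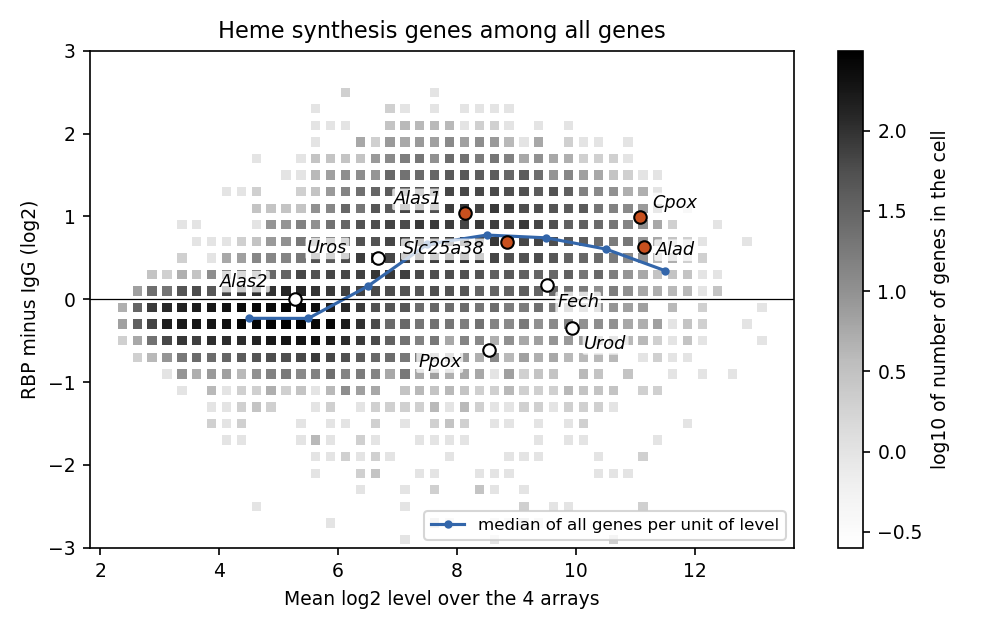
RBP minus IgG (vertical axis, log2) against the mean log2 level over the 4 arrays (horizontal axis). Grey squares are cells shaded by the log10 of the number of genes they hold (genes beyond the vertical axis are not drawn), the blue line is the median of all genes per unit of level, and circles are the 9 heme synthesis genes, filled where called. Cpox and Alas1 sit above the line, and Urod and Ppox sit below it at levels where the median is 0.74 and 0.78.

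Genes that feed, serve or control the pathway were taken as 5 lists with 73 measured genes. Of these 35 were higher and 1 was lower, with a median difference of 0.60, beside 23.8% higher and a median of -0.02 over all genes. Since 70 of the 73 lay above the background level, the closer comparison is the 36.5% called higher among all such genes, or the 47.1%, 56.4% and 57.8% at levels of 7 to 8, 8 to 9 and 9 to 10, where medians were 0.66, 0.78 and 0.74. The share and median of the partner genes were near these. In the supply of succinyl-CoA, glycine and pyridoxal phosphate and the turnover of the first enzyme, 7 of 11 genes were higher and 0 lower (limma; 9 and 0 at an unadjusted p under 0.05; 36.5% higher among all genes above background), with a median of 0.87. Lonp1, a mitochondrial protease that degrades Alas1 protein, differed by 1.52 ± 0.20 (limma, adjusted p = 0.00646). It read 7.86 and 8.17 with IgG and 9.73 and 9.35 with RBP. Ogdh, a subunit of the complex that makes succinyl-CoA, differed by 1.25, Shmt1, a cytosolic serine and glycine interconverting enzyme, by 1.09, and the succinyl-CoA synthetase subunit Sucla2 by 1.08.

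In mitochondrial transport, 5 of 14 genes were higher and 0 lower (limma; 6 and 1 at an unadjusted p under 0.05), with a median of 0.33. The share was close to the 36.5% of all genes above background. Most of these genes lie at levels of 7 to 10, where 47.1% to 57.8% of all genes were higher, with medians of 0.66 to 0.78. Both the share and the median of the list were below those. Abcb10, an inner membrane transporter needed for heme synthesis in red cell precursors, read 7.80 and 7.76 with IgG and 9.59 and 9.54 with RBP. Its difference was 1.79 ± 0.14 (limma, adjusted p = 0.00558), larger than that of any member. Abcb6, linked to porphyrin transport, read 7.02 and 6.73 with IgG and 8.70 and 8.56 with RBP, a difference of 1.75 ± 0.17 (adjusted p = 0.00558). Mtch1, an outer membrane protein, differed by 1.22, and the transporter Abcb8 by 1.19.

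In iron-sulfur cluster assembly, on which Fech depends for its own cluster, 6 of 12 genes were higher and 0 lower (limma; 7 and 0 at an unadjusted p under 0.05), with a median of 0.63. Among all genes above background 36.5% were higher. At levels of 7 to 10, where most of this list lies, 47.1% to 57.8% were. Nfu1, a late-acting carrier of clusters, differed by 1.66 ± 0.17 (limma, adjusted p = 0.00558), the chaperone Hspa9 by 1.27, Iba57 by 1.09 and Isca1 by 0.99. Nfu1, Iba57 and Isca1 had 2 probe sets each. The mean of the pair differed by 0.86 for Nfu1 (limma, adjusted p = 0.0110), by 0.15 for Iba57 (adjusted p = 0.467) and by 0.97 for Isca1 (adjusted p = 0.0310).

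Of 18 genes of heme use, export, binding and breakdown, 7 were higher and 1 was lower (limma; 9 and 2 at an unadjusted p under 0.05), with a median of 0.43. The share higher was again close to the 36.5% of all genes above background. It was below the 47.1% to 57.8% at levels of 7 to 10, where most of this list lies. Cox15, which makes heme A for cytochrome oxidase, differed by 1.37 ± 0.15 (limma, adjusted p = 0.00558), Hccs, which attaches heme to cytochrome c, by 1.35, and the heme exporter Flvcr1 by 1.22. The mean of the 2 probe sets of Flvcr1 differed by 0.62 (limma, adjusted p = 0.0456). Lrp1, a receptor for heme bound to hemopexin, differed by 1.60 ± 0.41, with RBP arrays of 9.09 and 7.83 that stood far apart, and its call was lost without RBP array 1 (0.97; limma, adjusted p = 0.0840), without IgG array 1 (1.79, adjusted p = 0.0610) and without IgG array 2 (1.40, adjusted p = 0.0978). Hebp2, a heme-binding protein, was lower by limma (-0.67, adjusted p = 0.0427), which did not hold when arrays were centred on chemosensory genes (-0.36, adjusted p = 0.174), without either RBP array (-0.55 and -0.79) and without IgG array 1 (-0.50).

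Of 18 regulators, 10 were higher and 0 lower (limma; 11 and 0 at an unadjusted p under 0.05), with a median of 0.71, beside 36.5% higher among all genes above background and 56.4% at levels of 8 to 9. Ireb2, an iron regulatory protein that binds the iron-responsive element of Alas2 mRNA, read 8.09 and 8.08 with IgG and 9.75 and 9.92 with RBP, a difference of 1.75 ± 0.15 (limma, adjusted p = 0.00558). Its relative Aco1 differed by 1.20, the transcription factor Foxo1 by 1.24, and Bach1, a repressor released from DNA by heme, by 1.21.

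Of the 20 partner genes called higher and named here, 11 kept the call without RBP array 1, 16 without RBP array 2, 10 with quantile normalization and 4 with the level trend removed, namely Abcb10, Abcb6, Nfu1 and Ireb2. Of all 73, with the trend removed, 5 were higher, those 4 and the exporter Abcg2, and 5 were lower. The lower genes were Slc25a39, Sfxn1, Lyrm4, Slc1a5 and Blvrb, which with Abcg2 are named after their values were seen.

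**Figure D4:**
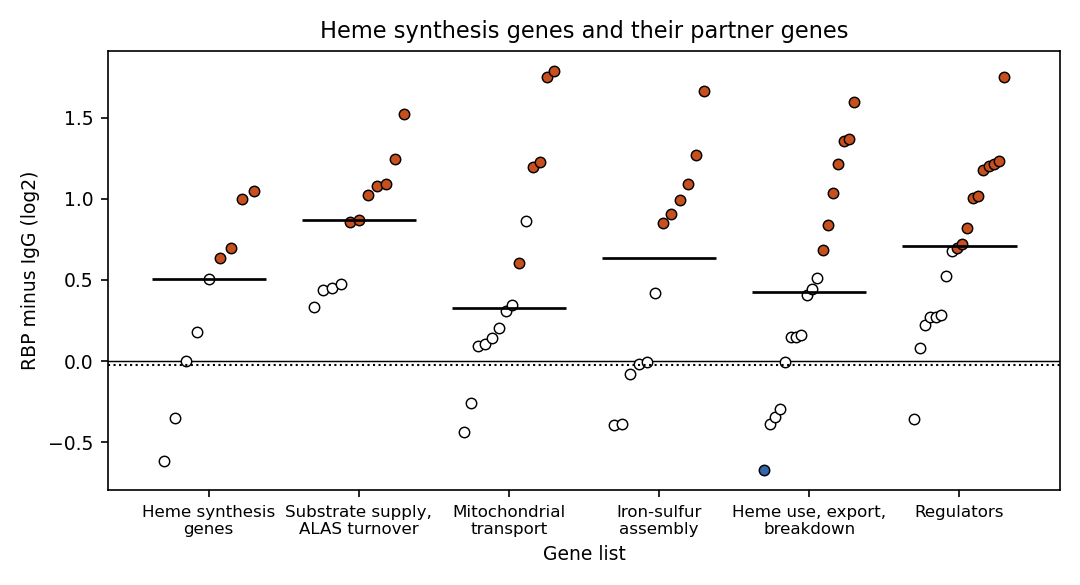
RBP minus IgG (vertical axis, log2) for the 9 heme synthesis genes and the 5 partner lists, 1 circle per gene, filled orange where called higher and blue where called lower, with a line at each list's median and a dotted line at the median of all genes (-0.02). The highest heme synthesis gene, Alas1 at 1.05, lies below Abcb10 at 1.79, Abcb6 at 1.75 and Ireb2 at 1.75.

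Profiles most like those of the isoenzymes were sought over the 4 arrays, among genes within 1 log2 unit in mean level, by Euclidean distance after subtracting each gene's mean. For Alas1 the nearest of 4608 genes were Crnkl1 (distance 0.05, difference 1.05), Abi2 (0.05, difference 0.997) and Ptpn1 (0.09, difference 1.13). For Alas2 the nearest of 6418 were P2ry6 (distance 0.04), Tmem53 (0.07) and Gpr160 (0.07), with differences of 0.02, 0.03 and -0.04. With 4 arrays and so many genes, close profiles of this kind are a description alone.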

How the data were processed

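The authors deposited log2 levels per probe set for 4 arrays, made with RMA and affy per the submitters' processing notes. Versions, background step and filters: not given in the sources used here. Their range, 1.83 to 13.87, and RMA itself point to a log2 scale. The deposited levels did not share one distribution over the 4 arrays. Their interquartile range was 2.91 for IgG array 1, 2.87 for IgG array 2, 3.73 for RBP array 1 and 3.61 for RBP array 2. They therefore do not look quantile normalized over the 4 arrays together, and the main fit took them without further scaling. The platform annotation gave 1 gene symbol for 21789 of 35556 probe sets. Each of 19938 genes was represented by its probe set with the highest mean, with no filter on level.

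RBP minus IgG was tested with limma 3.58.1 in R 4.3.3 (lmFit, eBayes; residual df 2, prior df 3.76), two-sided, with Benjamini-Hochberg adjustment over all genes and a threshold of 0.05. The fit was also run on simulated data with independent errors, few changed genes and no trend of difference with level. The real arrays differ from that setting, so the run does not bear on how far the calls here hold. The members, gene lists, markers, tests and alternatives were chosen with earlier results of these data known. All members were named, with the 4 called genes of largest absolute difference from each of 5 partner lists. The exceptions are Hebp2, the only partner called lower with the deposited values, and Abcg2, Slc25a39, Sfxn1, Lyrm4, Slc1a5 and Blvrb. These were named after their values were seen. Promoter windows came from RefSeq (GRCm38.p6). No columns of values were left out.

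The alternatives were quantile normalization over all probe sets, centring on 1244 chemosensory receptor genes, subtraction of a loess fit (span 0.3) of difference against level, a filter at the 95th percentile of chemosensory gene levels, averaging or testing every probe set, blocking on replicate number, leaving out each array, and eBayes with trend and robust options.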

Additional observations from a re-analysis of the deposited data

How the results depend on the processing

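With the deposited values 4 heme synthesis genes, 36 partner genes and 6045 genes in all were called in either direction. These counts with quantile normalization were 2, 13 and 2760, and with the level trend removed 1, 10 and 2065. Leaving out 1 array gave 0 to 4, 12 to 37 and 1823 to 7822 calls, with 0 heme synthesis genes called by limma without RBP array 1 (5 at an unadjusted p under 0.05) and 0 without RBP array 2 (2 unadjusted). The spread is then measured on the IgG pair alone, so a lost call need not mean a smaller difference. Signs turned for Alas2 without IgG array 2 (-0.05) and without RBP array 1 (-0.24; 0.24 without RBP array 2), for Fech with quantile normalization (-0.30) and with the trend removed (-0.56), and for Slc25a38 with the trend removed (-0.087). The cause was not tested. Slc25a38 also missed the threshold with the trend and robust options (limma, adjusted p = 0.0522). Replicate numbers are shared by the groups. The difference between array 1 and array 2 correlated across genes at r = 0.26 between IgG and RBP, and the labels state no pairing. With the replicate number as a block the counts were 4, 39 and 8084, and no call of a heme synthesis gene changed. Signal over background limited Alas2, which left the test when genes below the background level were removed.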
